A study of Homo sapiens with 6 samples.

Results

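The cytosolic ribosomal protein genes encode the proteins of the ribosome that works in the cytosol. They were taken by symbol: protein-coding genes of the GENCODE 44 annotation on chromosomes 1 to 22 and X whose symbol begins RPL or RPS followed by a digit, or is RPLP0, RPLP1, RPLP2 or RPSA, without the kinases whose symbol begins RPS6K. The rule gave 89 of 19970 protein-coding genes, spread over 21 chromosomes and starting from 86 distinct promoters when starts within 1 kb of each other were joined. Of the 89 genes, 77 encode core ribosomal proteins, 46 of the large subunit (RPL) and 31 of the small subunit (RPS). The other 12 are 8 paralogues (RPL3L, RPL10L, RPL39L, RPL22L1, RPL26L1, RPL7L1, RPL36AL and RPS27L), 3 readthrough genes whose TSS lies within 879 bp of that of a core gene (RPL17-C18orf32, RPS10-NUDT3 and RPL36A-HNRNPH2), and RPS19BP1, which encodes a protein that binds RPS19 and is not a ribosomal protein.

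The study mapped lysine acetylation (Kac) and lysine benzoylation (Kbz) by ChIP-seq, in which histones are captured with an antibody and the DNA wrapped around them is sequenced. The cells carried the label HepG2, a human line established from a liver tumour, and were grown in the same medium in every group. Untreated control cells were compared with cells given sodium benzoate (SB) at 10 mM for 24 h. Each of the 6 groups held 1 library: an input, a pan-Kac and a pan-Kbz library without and with SB. Peak lists of control Kac, SB Kac and SB Kbz were analysed. Per the labels, no peaks were found for control Kbz, so Kbz in SB-treated cells had no untreated counterpart here, and the inputs were not analysed here. A single library per group leaves no replicate error to weigh a difference against, and the main counts and medians below stand beside the same values over all protein-coding genes. Pan antibodies read the modification on any histone and any lysine.

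Ribosomal protein genes are transcribed by RNA polymerase II at high rates in growing cells, and their products are needed in near-equal numbers to build each ribosome. Their promoters are compact, and transcription usually starts at a C inside a run of pyrimidines, the 5′ terminal oligopyrimidine (TOP) motif, through which the mTOR pathway controls translation of the mRNAs. Lysine acetylation and related acylations of histones are found mainly around active transcription start sites (TSSs), and benzoylation is an acylation that adds an aromatic group.

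There were 70326 peaks in control Kac, 63282 in the SB Kac list and 24308 in SB Kbz, and the lists carried no read totals, so sequencing depth was unknown. The label of the cells was checked with marker genes. Of 14 hepatocyte genes, 6 had a peak within 3 kb of the TSS in control Kac, 5 in the SB Kac list and 4 in Kbz, and a peak lay over the TSS of 2 of them in each list, FOXA3 among them. ALB, AFP, APOB, TTR, SERPINA1, FGB, HNF4A and FOXA2 had no peak there in any list. Of 8 kidney genes, 7 had a peak in each list, lying over the TSS of 7, 7 and 6. Of 6 blood genes 2, 3 and 1 had a peak, and of 6 neuronal genes 2, 3 and 2. The defining markers of the labelled liver line were thus largely without peaks. The libraries are called here by their labels, and the part of cell identity in the values below was not tested.

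The promoters of 3 members are shown because the results turn on them: RPL32 and RPL29 had the highest fold among the members in SB Kac and SB Kbz respectively, and RPL10L had no peak in any list. Each runs 5′ to 3′ along the gene's strand from 250 bases before the TSS to base 30 of the transcript, read from hg38 at the canonical GENCODE 44 start. Capitals, which can overlap between motifs, mark matches on either strand to the motifs of ETS family factors, YY1, the TATA box and the GC box, whose letters are spelled out with their frequencies further on, and the longest TOP-like run, that is a C followed by at least 4 pyrimidines and beginning within 20 bases of the TSS.
RPL32, chr3:12841536-12841815, minus strand: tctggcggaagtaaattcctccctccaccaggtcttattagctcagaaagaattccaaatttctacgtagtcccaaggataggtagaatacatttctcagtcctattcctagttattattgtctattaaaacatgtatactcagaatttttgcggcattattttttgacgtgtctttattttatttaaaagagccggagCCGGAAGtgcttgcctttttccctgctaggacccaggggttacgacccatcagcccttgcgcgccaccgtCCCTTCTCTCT
RPL29, chr3:51995866-51996145, minus strand: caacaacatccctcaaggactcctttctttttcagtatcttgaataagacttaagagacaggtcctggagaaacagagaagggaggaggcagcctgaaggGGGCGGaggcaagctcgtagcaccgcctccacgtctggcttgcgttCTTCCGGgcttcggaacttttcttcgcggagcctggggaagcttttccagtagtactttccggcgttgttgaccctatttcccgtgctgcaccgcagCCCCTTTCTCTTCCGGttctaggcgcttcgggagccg
RPL10L, chr14:46651752-46652031, minus strand: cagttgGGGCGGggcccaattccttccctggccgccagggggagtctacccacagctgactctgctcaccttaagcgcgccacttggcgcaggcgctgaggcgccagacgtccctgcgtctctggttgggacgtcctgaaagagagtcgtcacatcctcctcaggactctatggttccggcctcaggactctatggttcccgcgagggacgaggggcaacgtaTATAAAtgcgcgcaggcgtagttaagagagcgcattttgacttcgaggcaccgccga
RPL32 held an ETS match from -51 to -45, where the TSS is base 1 and there is no base 0, and its longest run began at base 20, so that the printed window ends inside it. A shorter run of RPL32 that begins within 2 bases of the TSS is left in lower case. RPL29 held 2 ETS matches on the reverse strand, 1 of them from base 3 to 9 in the transcribed part and overlapping the end of the pyrimidine run. RPL10L held a TATA match from -27 to -22 and no pyrimidine run. A match describes the letters only and is no evidence of binding.

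Nearly all ribosomal protein genes were marked in all 3 lists. A peak lay within 3 kb of the canonical TSS of 88 of 89 genes in each of control Kac, SB Kac and SB Kbz, or 98.9% (Wilson 95% interval 93.9 to 99.8, counting error only). Among all protein-coding genes this share was 73.1% in control Kac, 72.1% in the SB Kac list and 60.5% in SB Kbz. A peak lay directly over the TSS of 88, 88 and 87 members, against 59.3%, 60.5% and 45.9% of all protein-coding genes. All 3 lists had a peak at 88 members, against 60% of all protein-coding genes, and every one of the 77 core genes had its TSS under a peak in every list. Each readthrough gene was counted beside the core gene whose peak it shares. With 15000 peaks taken from each list, 83, 87 and 86 members had a peak, against 39.3%, 49.1% and 49.2% of all protein-coding genes.

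Only RPL10L, a paralogue of RPL10 known for expression in the testis, was without a peak in any list. RPL3L, the muscle paralogue of RPL3, had weak peaks: its fold was 2.96 in control Kac, 3.10 in the SB Kac list and 2.99 in SB Kbz, and its Kbz peak began 598 bp downstream of the TSS and ended 1801 bp downstream. At a −log10 q of at least 2, which is the stated FDR of 0.01, this Kbz peak was lost and 87 members had one. Both Kac peaks of RPL3L covered the TSS. Both exceptions were paralogues. The other paralogues had a peak over the TSS in every list, and the part of expression was not tested.

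Promoter peaks of the members also ranked high within their lists. The deposited fold of each peak, its read density over the background of the peak caller, was turned into a percentile of its own list, with 100 for the highest, since folds are not comparable between lists of unknown depth. The median percentile of the 88 peaks was 97.4 in control Kac (quartiles 92.3 and 98.8), 97.6 in the SB Kac list (92.5 and 99.3) and 91.4 in SB Kbz (83.6 and 97.0). All protein-coding genes with a peak had medians of 81.2, 84.99 and 67.0. The peak was in the top 10% of fold at 71 members in control Kac, 78 in the SB Kac list and 48 in SB Kbz, against 20.6%, 25.5% and 9.33% of all protein-coding genes. The promoter peak was among the top 1000 of its list by fold at 26, 35 and 29 members. Among all protein-coding genes the shares were 2.62%, 4.16% and 3.62%. The fold of a broad peak is an average over its whole length, so a long peak can rank below a short one with the same summit.

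**Figure D1:**
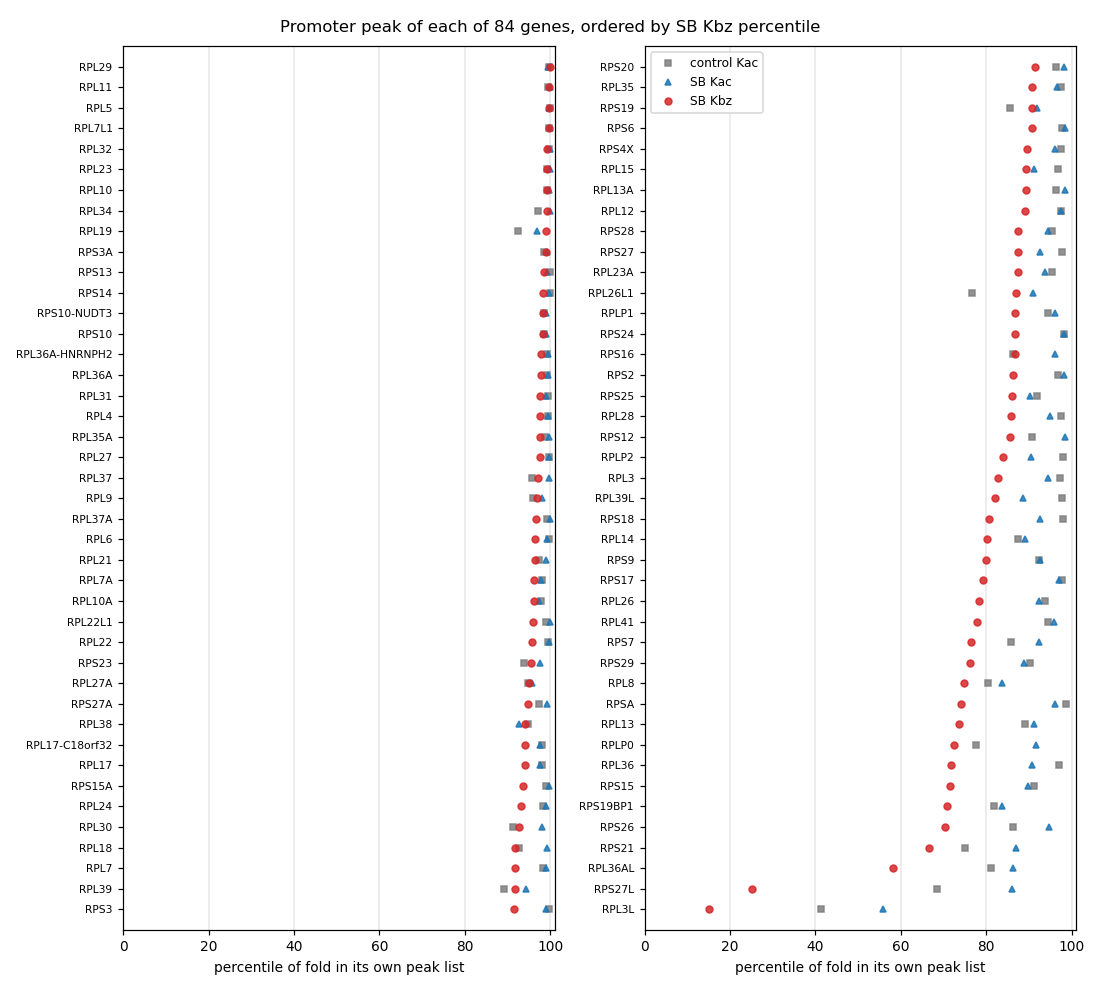
Percentile of fold of the promoter peak (x axis, 100 is the highest fold in the list) of 84 of the 88 members with a peak, ordered by SB Kbz. Grey squares are control Kac, blue triangles SB Kac and red circles SB Kbz, 1 library each. Most members sit above 80 in the Kac lists, while RPL3L (15.1) and RPS27L (25.1) stand apart in Kbz.

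The 3 lists did not share the same leading gene. RPL5, which carries 5S rRNA into the large subunit, ranked 26th in control Kac with a fold of 8.13, followed by RPS13 at rank 60 and RPS14 at rank 67. RPL32 ranked 2nd of 63282 peaks in SB Kac with a fold of 10.97, followed by RPL23 at rank 6 and the paralogue RPL7L1 at rank 14. RPL29, a small basic protein of the large subunit, ranked 28th in SB Kbz with a fold of 11.1, followed by RPL11 at rank 59 and RPL5 at rank 76. The lowest members in control Kac were RPL3L at percentile 41.4, RPS27L at 68.4 and RPS21 at 75.1. In SB Kac they were RPL3L at 55.8, RPL8 at 83.6 and RPS19BP1 at 83.8, and in SB Kbz RPL3L at 15.1, RPS27L at 25.1 and RPL36AL at 58.2. Some paralogues were among the lowest members in each list, and others were not. RPL39L stood at 97.8 in control Kac and at 88.6 in SB Kac. RPL7L1 stood at 99.7, 99.98 and 99.7 in control Kac, SB Kac and SB Kbz, and RPL22L1 at 98.9, 99.96 and 95.9.

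By subunit, the 46 large-subunit core genes had median percentiles of 97.4 in control Kac, 98.0 in the SB Kac list and 94.0 in SB Kbz, and the 31 small-subunit genes 97.3, 97.1 and 87.5. In SB Kbz, 20 of the 46 large-subunit and 5 of the 31 small-subunit promoters were among the top 1000 by fold. The small-subunit genes at that level included RPS3A, RPS10, RPS13 and RPS14. Whether the subunits differ was not tested, since genes are not replicates of a condition.

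Members grouped by role were covered throughout. RPL5 and RPL11, which form with 5S rRNA the particle that binds MDM2, were at percentile 99.4 or above in all lists: RPL5 at 99.96, 99.8 and 99.7, and RPL11 at 99.4, 99.98 and 99.8. The P-stalk proteins, which recruit translation factors to the ribosome, ranked lower in Kbz. RPLP0 stood at 77.6 in control Kac, 91.7 in the SB Kac list and 72.4 in SB Kbz, RPLP1 at 94.5, 96.2 and 86.8, and RPLP2 at 97.9, 90.4 and 83.9. RPS27A, made as a fusion with ubiquitin, stood at 97.3, 99.1 and 94.9. A list of 9 of the genes known to be mutated in Diamond-Blackfan anaemia, an inherited failure of red cell production, was also taken, which leaves out others known from it. All 9 had a peak over the TSS in each list. Their median was 98.3 in control Kac, 98.2 in the SB Kac list and 90.8 in SB Kbz, and the range in Kbz ran from RPS26 at 70.4 to RPL11 at 99.8.

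By position, the 5 members on X had a Kbz median of 97.8, from RPS4X at 89.6 to RPL10 at 99.2. That median is the 1 peak shared by RPL36A and its readthrough gene, which was counted for each of them. The 12 members on chromosome 19 had a Kbz median of 87.1. The 28 core genes that host a small nucleolar RNA in their annotated span had a Kbz median of 92.2 and the other 49 one of 90.8. The 13 core genes with another coding gene starting in the opposite direction within 1 kb had 91.7 and the other 64 had 91.4. In both cases the ranges of the genes with and without the feature overlapped.

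**Figure D2:**
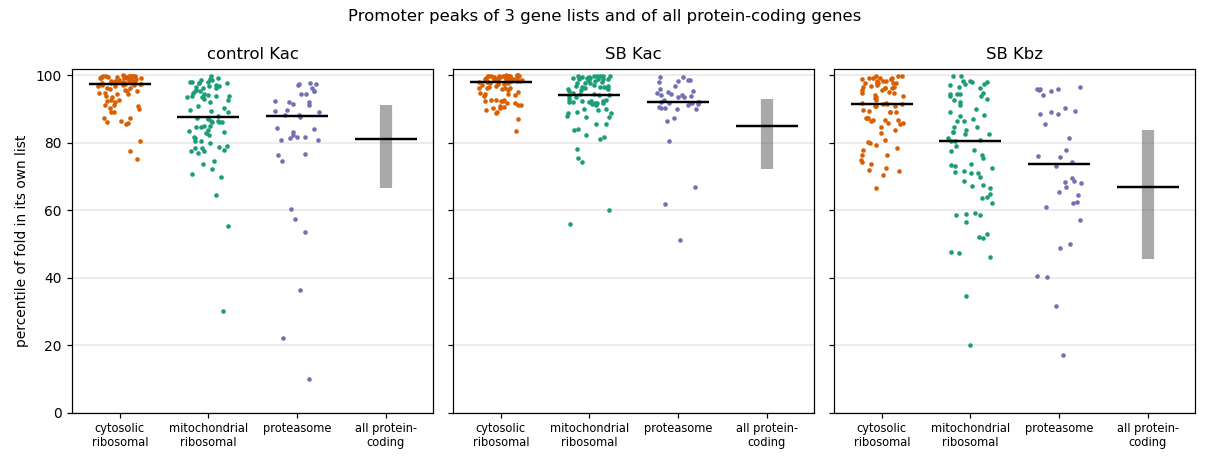
Percentile of fold of the promoter peak (y axis) in the 3 lists, for the 77 core cytosolic ribosomal genes, 78 mitochondrial ribosomal genes, 40 proteasome genes and all protein-coding genes. Points are genes with a peak, black lines medians and the grey bar the quartiles of all protein-coding genes. In SB Kbz the medians are 91.5, 80.6, 73.7 and 67.0.

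The cytosolic genes were set beside the most similar modules, large housekeeping complexes. Of 78 mitochondrial ribosomal protein genes, whose products build the ribosome inside mitochondria, 76 had a peak in control Kac, 76 in the SB Kac list and 74 in SB Kbz, and of 40 proteasome subunit genes 38, 37 and 36. Coverage was thus near that of the cytosolic set in all 3 modules. The percentiles were less alike. Mitochondrial ribosomal genes had medians of 87.7 in control Kac, 94.3 in the SB Kac list and 80.6 in SB Kbz, and proteasome genes 87.8, 92.2 and 73.7. In SB Kbz, 32.5% of the core cytosolic genes, 14.1% of the mitochondrial and 7.5% of the proteasome genes were among the top 1000 by fold. These are descriptions of single libraries and were not tested.

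Peaks of the members were long, and they were long on the side of the gene. Median peak length was 3352.5 bp in control Kac, 4039 bp in the SB Kac list and 2789 bp in SB Kbz, against 2537, 2658 and 1636 bp for all protein-coding genes with a peak. Mitochondrial ribosomal genes had 2453.5, 2651.5 and 1738 bp, and proteasome genes 2627, 2585 and 1811 bp. Read along the gene's strand, the median Kbz peak of the members ran from -988.5 to 1703 bp around the TSS, and that of all protein-coding genes from -826 to 831 bp. In control Kac the median edges of the members were -1393 and 1880 bp, and in SB Kac -1335 and 2354.5 bp. The downstream arm was the longer one at 72.7% of members in control Kac, 84.1% in the SB Kac list and 81.8% in SB Kbz. Among all protein-coding genes with a peak the shares were 52.0%, 57.6% and 50.01%. For mitochondrial ribosomal genes these shares were 47.4%, 47.4% and 33.8%.

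**Figure D3:**
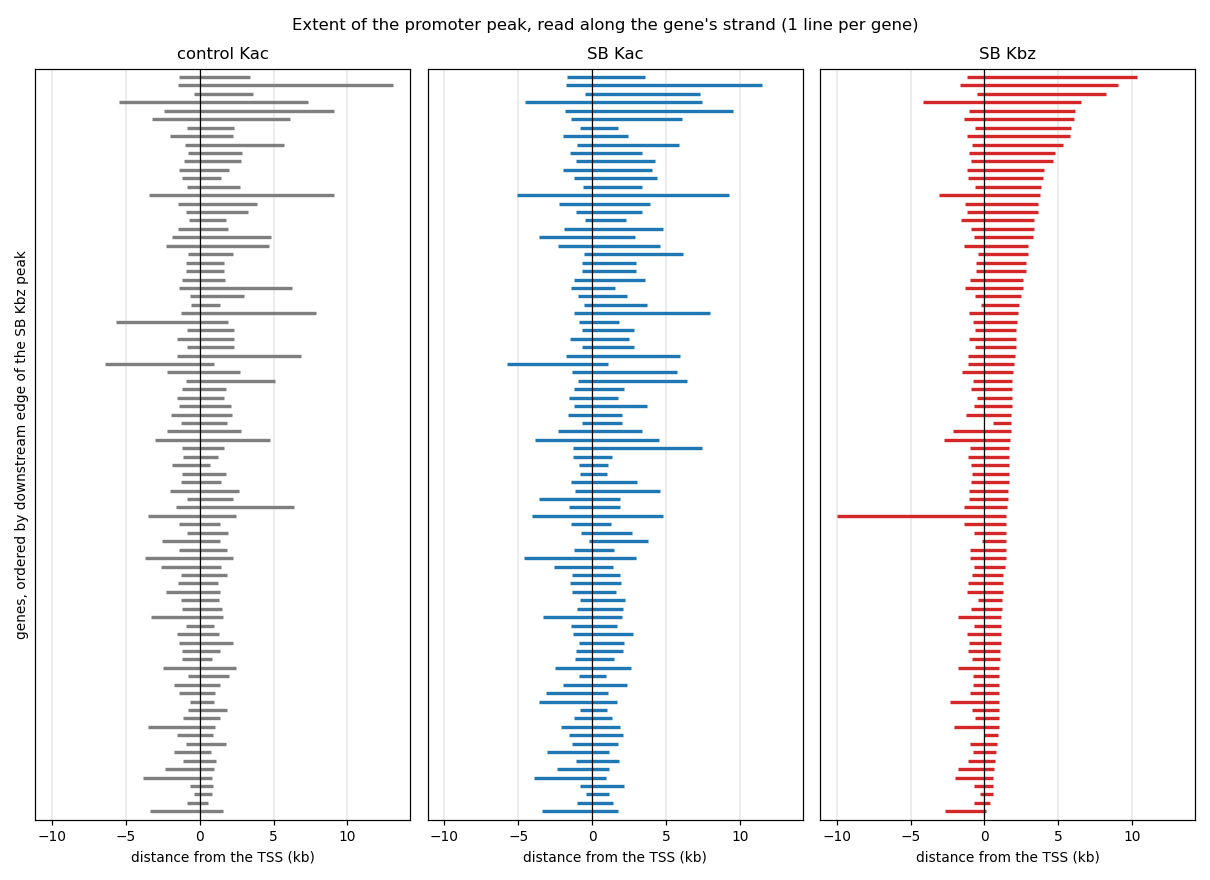
Extent of the promoter peak of 88 members (1 line per gene, the same order in each panel), in kb from the TSS along the gene's strand. Lines reach further to the right of the TSS than to the left.

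The coverage around the TSS showed the same lean. At 1 kb downstream of the TSS, peaks covered 88.3% of the core genes in control Kac, 97.4% in the SB Kac list and 85.7% in Kbz. At 1 kb upstream the shares were 74.0%, 74.0% and 49.4%. At 2 kb downstream 48.1%, 64.9% and 41.6% were still covered, against 21.6%, 23.5% and 5.60% of all protein-coding genes and 6.41%, 17.9% and 1.28% of mitochondrial ribosomal genes. At 3 kb downstream Kbz covered 28.6% of the core genes and 2.5% of all protein-coding genes.

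**Figure D4:**
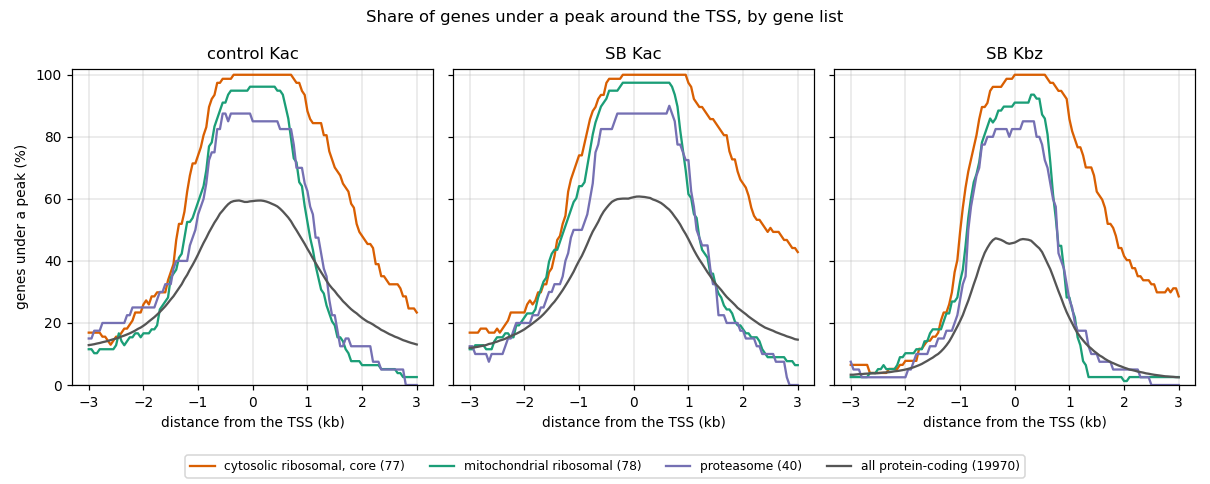
Share of genes under a peak (y axis, %) by distance from the TSS along the gene's strand (x axis, kb), for core cytosolic ribosomal genes, mitochondrial ribosomal genes, proteasome genes and all protein-coding genes. The curve of the cytosolic genes falls later downstream than the others, and in SB Kbz is at 41.6% at 2 kb.

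Ribosomal protein genes are short: the canonical transcript of a member spanned a median of 4701 bp, against 22930.5 bp for all protein-coding genes. Peaks covered the whole of that span at 15 members in control Kac, 23 in the SB Kac list and 16 in SB Kbz, against 1.79%, 1.91% and 0.706% of all protein-coding genes. RPL13, RPL3, RPL36, RPL41, RPS15, RPS18 and RPS2 were among the members wholly covered in all 3 lists. Gene length moves with this count, and its part was not tested. Over the 88 members, the downstream edge of the Kbz peak was only weakly related to the span (Spearman's rho = -0.15, a description over genes of 1 library). Another coding TSS lay within 3 kb of 27 members, and the Kbz peak ended beyond the end of the member's own transcript at 16. Neither count was taken over all protein-coding genes, so neither says whether the members differ from them.

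The longest promoter peaks belonged to few genes. RPL3, which lies near the peptidyl transferase centre, had the longest in control Kac at 14570 bp, followed by RPS15 at 12813 bp and RPL23A at 12534 bp. In SB Kac RPL23A led with 14290 bp, followed by RPL3 at 13222 bp and RPS15 at 12042 bp. In SB Kbz RPS15 with 10690 bp and RPL3 with 10681 bp were among the longest.

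The comparison of SB Kac with control Kac asked whether SB moved acetylation at these genes. The percentiles of most members were close in both lists. The median difference in percentile, SB Kac minus control Kac, was 0.575, and 55 of 88 members were higher in SB Kac, or 62.5%, against 62.7% of all protein-coding genes with a peak in both lists, whose median difference was 2.33. The value depended on which peaks were kept: with a −log10 q of at least 5 it was 1.64 for the members, and with 15000 peaks from each list 1.99, against 5.62 and 7.07 for all protein-coding genes. For mitochondrial ribosomal genes the median difference was 4.91, with 61 of 76 higher, and for proteasome genes 4.97, with 32 of 37 higher. Members stood near the top of the list in control Kac, where a percentile can rise by little. Spearman's rho between the percentiles of the 2 Kac lists was 0.78 over the 88 members, a description over genes that share these libraries.

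The largest rises were those of RPS27L, a paralogue induced by p53, from 68.4 to 86.1, RPL3L from 41.4 to 55.8 and RPL26L1 from 76.8 to 91.1. The largest falls were those of RPL39L from 97.8 to 88.6, RPLP2 from 97.9 to 90.4 and RPL36 from 97.0 to 90.8. Except for RPLP2 and RPL36 these were paralogues. The peaks of RPLP2 and RPL36 were also longer in SB Kac, 6042 against 3402 bp and 7787 against 3999 bp, while their folds were 5.13 against 5.81 and 5.19 against 5.56, each on the scale of its own list.

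Peak length also differed between the Kac lists. The SB Kac peak was the longer one at 63 of 88 members, or 71.6%. Among all protein-coding genes with a peak in both Kac lists the share was 53.7%. The median ratio of SB Kac to control Kac length was 1.12 for the members and 1.02 for those genes. Mitochondrial ribosomal genes had 69.7% and 1.13, close to the cytosolic set. The SB Kac peak was at least 2 times as long at 6 members, RPL7, RPLP0, RPS24, RPS14, RPL10 and RPS6. The share among all protein-coding genes with a peak in both lists was 8.42%. RPLP0 went from 2890 to 8745 bp, its downstream edge from 1675 to 7446 bp, and RPL7 from 1643 to 5284 bp, mostly upstream, towards the start of RDH10, which lies 969 bp away. In control Kac RPL7 had 2 peaks within 3 kb of its TSS, which together covered 2723 bp of that window, against 4724 bp for the single peak in SB Kac. The control Kac peak was at least 2 times as long at 3 members, RPS16, RPL18 and RPL7A. Among the protein-coding genes with both peaks the share was 7.5%. RPS16 had 7569 bp in control Kac and 2680 bp in SB Kac. Peak length also depends on sequencing depth, which was unknown.

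**Figure D5:**
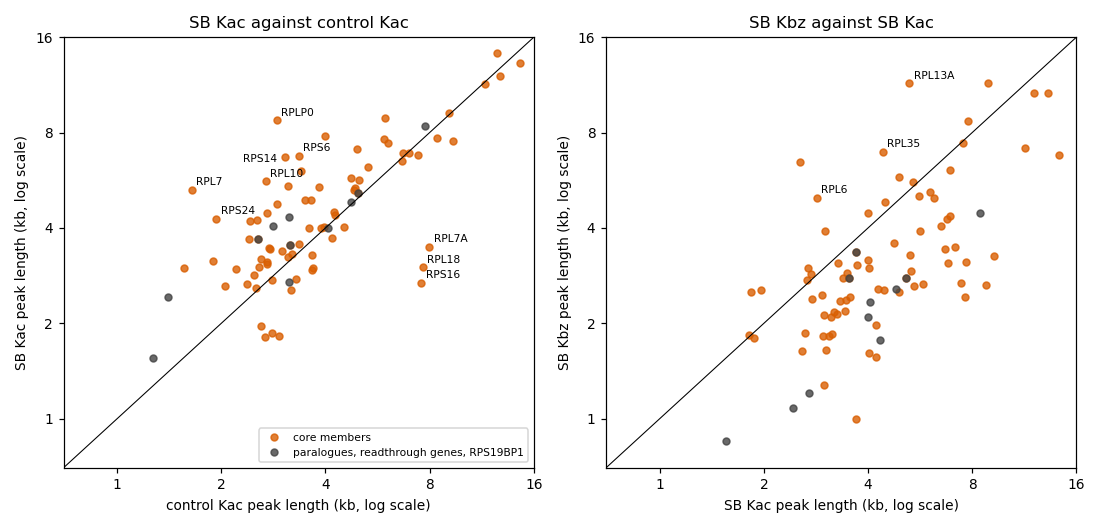
Promoter peak length of the 88 members (kb, log scales), SB Kac against control Kac on the left and SB Kbz against SB Kac on the right, 1 point per gene, with the line of equal length. On the left 63 points lie above the line and named genes differ at least 2 times. On the right 17 lie above it and named genes have a ratio of 1.5 or more to SB Kac, RPL35 at 6965 bp against 4410 bp among them.

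The comparison of Kbz with SB Kac, both from SB-treated cells, asked how closely benzoylation followed acetylation. The Kbz peak lay wholly inside the SB Kac promoter peak at 64 of 88 members, or 72.7%, against 79.6% of all protein-coding genes with a peak in all 3 lists. The percentile in the Kbz list was below that in the SB Kac list at 85 members, with a median difference, Kbz minus SB Kac, of -5.23, against -19.1 for all protein-coding genes, -13.7 for mitochondrial ribosomal genes and -19.6 for proteasome genes. Percentiles depend on list length: with 15000 peaks taken from each list the medians of the members were 88.2 in control Kac, 89.95 in the SB Kac list and 86.3 in SB Kbz. Kbz ranked above SB Kac at 3 members, against 8.11% of all protein-coding genes with a peak in all 3 lists. These members were RPL19 at 99.0 against 96.8, RPL29 at 99.9 against 99.4 and RPL38 at 94.1 against 92.8. Over the 88 members the percentiles of the 2 lists had a Spearman's rho of 0.84.

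Kbz peaks were the longer ones at 17 of 88 members, or 19.3%, against 6.01% of all protein-coding genes, and all 17 were core genes, where members that share a peak count as 1 each. They included 7 of the 12 members on chromosome 19. For mitochondrial ribosomal genes the share was 4.05% and for proteasome genes 8.33%. RPL35 had 6965 bp in Kbz and 4410 bp in SB Kac, RPL6 4971 and 2843 bp, and RPL32 2518 and 1830 bp. The Kbz peak reached further downstream at RPL35, with edges at 5777 and 2414 bp, and at RPL6, with 3363 and 2332 bp. At RPL14 it did not.

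Among the few motifs searched, the core promoters differed most from all protein-coding promoters in the TOP-like run at the annotated TSS. A TOP-like run began within 20 bases of the TSS at 75 of 77 core genes, or 97.4%, against 49.8% of all protein-coding genes and 51.3% of mitochondrial ribosomal genes. With the run beginning within 2 bases of the TSS the shares were 79.2%, 11.1% and 8.97%, and with it beginning at the TSS base 75.3%, 4.59% and 6.41%. The longest run had a median of 11 bases in core genes and 6 in all genes that held one. The following starts, from 10 bases before the TSS to base 20 of the transcript, are shown because they put core genes with high and low Kbz beside paralogues, with the longest run in capitals.
RPL11, chr1:23691796-23691825, plus strand: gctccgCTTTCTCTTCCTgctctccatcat
RPL35A, chr3:197950180-197950209, plus strand: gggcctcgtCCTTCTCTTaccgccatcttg
RPLP2, chr11:809957-809986, plus strand: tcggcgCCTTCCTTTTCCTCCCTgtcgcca
RPLP0, chr12:120201092-120201121, minus strand: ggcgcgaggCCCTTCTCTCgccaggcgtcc
RPS26, chr12:56041908-56041937, plus strand: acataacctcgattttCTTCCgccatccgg
RPL22L1, chr3:170870176-170870205, minus strand: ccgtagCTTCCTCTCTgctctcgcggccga
RPL7L1, chr6:42879606-42879635, plus strand: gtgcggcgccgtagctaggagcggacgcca
RPS27L, chr15:63157458-63157487, minus strand: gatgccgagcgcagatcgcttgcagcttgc
RPL39L, chr3:187139477-187139506, minus strand: cggggaaatcgcggtcttagcatccggcgc
The core genes RPL11, RPL35A, RPLP2 and RPLP0 and the paralogue RPL22L1 had runs of 9 to 17 bases across the TSS, and RPS26 a run of 5 bases beginning at base 7. RPL7L1, RPS27L and RPL39L had none within 20 bases. Among these, which were chosen for high and low Kbz, RPL7L1 stood at a Kbz percentile of 99.7 and RPS27L at 25.1, and RPL11 at 99.8 and RPLP0 at 72.4. Over all core genes the median Kbz percentile was 91.5 for the 61 with a run beginning within 2 bases of the TSS and 91.8 for the other 16.

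Other motifs were searched on both strands from 250 bases before to 50 bases after the TSS, a window of 300 bases. CCGGAAG, the core of ETS family sites, occurred in 35.1% of the core promoters (Wilson 95% interval 25.3 to 46.2) and in 14.1% of all protein-coding promoters, and AAGATGG, found in sites of YY1, in 18.2% (11.2 to 28.2) and 6.42%. Mitochondrial ribosomal promoters held both at least as often, at 41.0% and 32.1%. TATAAA, the TATA box, occurred in 7.79% of the core and 9.73% of all promoters, and GGGCGG, the GC box, in 59.7% and 61.3%. Median GC content was 59.3% in core promoters and 63.7% in all. The 27 core genes with CCGGAAG had a median Kbz percentile of 95.1 and the 50 without one of 90.8, in SB Kac 98.6 and 97.5, and in control Kac 97.4 and 97.3. Percentiles of both groups overlapped in each list, from 66.7 to 99.9 with the motif and from 70.4 to 99.7 without it in Kbz.

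Genes that work with the ribosomal proteins were looked at in the same way. FAU and RACK1, ribosomal proteins whose symbols the rule does not catch, had a peak over the TSS in all 3 lists, with Kbz percentiles of 71.8 and 95.3. Of 11 translation factors whose mRNAs also begin with a TOP motif, 11 had a peak within 3 kb in each list, with a Kbz median of 71.7, and PABPC1 was the one without a peak over the TSS. Of 15 genes of ribosome assembly and rRNA transcription 14 had a control Kac, 15 an SB Kac and 14 a Kbz peak, RRN3 being the one without control Kac and Kbz. Their Kbz median was 90.2, near the 91.5 of the core ribosomal protein genes.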

How the data were processed

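ChIP-seq peak lists of 3 libraries were used. Per the labels and the study's methods, the authors digested chromatin with micrococcal nuclease, aligned reads to hg38 with Bowtie2 2.2.6, removed duplicates with SAMtools 0.1.19 and called broad peaks per library with MACS2 2.1.1 at a stated FDR of 0.01. The deposited −log10 q reaches down to 1.31, beyond that FDR. The deposited score was read to identify the columns and not used. The deposited fold, a linear ratio averaged over a peak, was ranked within its list, and the deposited −log10 p and −log10 q served as thresholds.

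The promoter peak of a gene was the peak over its canonical GENCODE 44 TSS or, failing that, the nearest within 3 kb. Members and lists were chosen with earlier results of these data known. Named were members lacking a peak or with none over the TSS, the 3 highest and 3 lowest by percentile and the 3 longest per list, the 3 largest rises and falls, and the role groups. Other genes, those past a length ratio among them, were named after their values were seen, and some items these rules name are not reported here. Shares have Wilson 95% intervals. Python 3.11.15, numpy 2.4.6, pandas 2.3.3, scipy 1.17.1, matplotlib 3.10.9 and bedtools 2.31.1 were used. On simulated data the peak assignment recovered 400 of 400 planted peaks, and 0 of 6 counts on the deposited lists differed from those of bedtools.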

Additional observations from a re-analysis of the deposited data

How the results depend on the processing

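Of 131 recomputed values over 18 results, 118 were labelled the same, 13 moved and 0 reversed. Medians and the share with a TOP-like run were labelled the same inside the interval of their main value. Counts of members had no interval and were labelled the same within a wide fixed ratio of the main count. Such a ratio could hardly be left by these counts, so their label says little. Only the difference in percentile could be labelled reversed. Restricted to a −log10 q of at least 5, the members had a median percentile of 90.9 in control Kac, 91.8 in the SB Kac list and 82.6 in Kbz. With the 15000 peaks of highest −log10 p per list it was 88.2, 89.95 and 86.3. Both settings remove weak peaks, which lowers a percentile by construction. Under them the median difference, SB Kac minus control Kac, was 1.64 and 1.99. For all protein-coding genes with a peak in both lists it was 5.62 and 7.07. With a 1 kb window the median number of promoter bases under a peak was 2001, 2001 and 1929 in the 3 lists, since the window is smaller, against 3352.5, 3936 and 2789. The share of core genes with a TOP-like run was 79.2% within 2 bases of the TSS and 75.3% at the TSS base, both settings chosen after seeing the data.

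At a −log10 q of at least 5, 85, 87 and 86 members kept a peak, against 48.2%, 54.6% and 41.3% of all protein-coding genes. RPL3L was lost from every list, RPS27L from control Kac and Kbz, and RPS21 from control Kac. At a −log10 q of at least 2, RPL3L was lost from Kbz. With 15000 peaks per list RPL8 and RPLP0 were lost from control Kac as well. No paired analysis was possible because there was 1 library per group, and no replicate could be left out. Depth was unknown, which limits every comparison of peak presence, length and rank between lists.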

Other observations

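Ribosomal protein genes have left many processed pseudogenes, intron-less copies of their mRNAs, in the human genome. GENCODE 44 lists 1585 with a ribosomal protein name and 12256 other processed pseudogenes. The start of the copy lay under a peak at 40 of the former (2.52%) in control Kac, 26 (1.64%) in the SB Kac list and 5 (0.315%) in Kbz, against 2.64%, 2.45% and 1.08% of the other processed pseudogenes. Where no coding gene started within 3 kb, 28, 14 and 2 of 1437 copies had their start under a peak, or 1.95%, 0.974% and 0.139%, against 2.13%, 1.94% and 0.729% of 11520 others. A peak within 3 kb of the start was found at 18.9%, 16.6% and 5.87% of the ribosomal copies, and at 11.7%, 10.9% and 4.77% of the others. Where no coding gene started within 3 kb, these shares were 15.7%, 13.3% and 3.06% of the ribosomal copies and 10.2%, 9.36% and 3.39% of the others, so that in Kbz the direction turned. Reads that map equally well to a gene and its copies were not kept by the authors, so coverage of the near-identical parts of both is uncertain.

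Of these 1437 copies, RPL12P38 was the one with its start under a peak in all 3 lists, at percentiles 90.4, 78.8 and 49.6 in control Kac, SB Kac and SB Kbz.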
